A study of Mus musculus with 12 samples.

Results

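The mitochondrial ribosomal protein genes were taken as every array probe whose only gene symbol began with Mrpl or Mrps followed by a digit. This gave 67 probes for 65 genes, 42 Mrpl and 23 Mrps genes, out of 14411 probes with a single symbol for 13840 genes on an array of 33012 probes. Mrpl49 and Mrps33 had 2 probes each. The rule used names only and no measured value.

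The mitochondrial ribosome, or mitoribosome, translates the few messenger RNAs that mitochondrial DNA encodes, all of them for subunits of the respiratory chain and the ATP synthase. Its ribosomal RNAs come from mitochondrial DNA, while its proteins are encoded in the nucleus, made in the cytosol and imported. Some of these proteins have a counterpart in bacterial ribosomes and others arose in mitochondria. Naive pluripotent stem cells of the mouse use both respiration and glycolysis, whereas cells of the post-implantation epiblast state are known for a more glycolytic metabolism.

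Expression was measured on 12 one-colour arrays, 3 for each of 4 groups of mouse cells, and the question was how the reprogrammed cells stand between epiblast and embryonic stem cells. The groups were rEpiES cells at passage 24, rEpiES cells at passage 4, cultured epiblast (cEpi) and ES cells. The rEpiES cells are ES-like cells that arose in cultures of epiblast from embryonic day 5.5 to 7.5, grown in serum and LIF on mitomycin-treated embryonic fibroblasts, and came from clones with cells positive for an Oct4-ΔPE-GFP reporter. The labels name 129/sv or ROSA 129/Sv mothers and Oct4-ΔPE-EGFP transgenic fathers for the embryos. They describe the cEpi cells as epiblast dissected by morphology and treated with EGTA and trypsin, without giving the culture, and they do not say which ES line was used. Whether replicate arrays had cultures of their own is not stated, and p-values therefore cover the spread between arrays only, which may be technical.

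Per array, 12061 to 16537 probes were detected (a deposited signal-to-noise score of 3 or more), and 63 to 66 of the 67 members. The ES-like label of rEpiES was checked against naive pluripotency markers, of which 9 on a longer list had a probe of a single symbol. All 9 were detected on every array of rEpiES passage 24, rEpiES passage 4 and ES. Their summed linear level in units of 1000 was 1820 to 2070 in rEpiES passage 24, between 2090 and 2190 in rEpiES passage 4, 93.6 to 100 in cEpi and 1270 to 1460 in ES. Tcl1 and Tfcp2l1 were detected on no cEpi array. In the fit described below, 6 of the 9 were called higher and 3 lower in rEpiES passage 4 than in ES. At passage 24 against ES, 4 were called higher and 3 lower, with changes from -1.57 for Tfcp2l1 to 2.85 for Tcl1. At passage 24 against passage 4, 4 of the 9 were called lower and 5 were not called. The spread between arrays was widest in ES, with a median SD of the members of 0.08 in rEpiES passage 24, 0.05 in rEpiES passage 4, 0.06 in cEpi and 0.17 in ES on the log2 scale. Levels are the authors' quantile-normalised log2 values, on which a difference of 1 is a 2-fold difference, given as mean ± SD over 3 arrays. Changes are log2 differences ± standard error from 1 limma fit over 15235 probes, each detected on every array of 1 or more groups, and a probe was called at a Benjamini-Hochberg adjusted p under 0.05 over all of them. The fit pools the spread of all groups, so standard errors may be too small for changes against ES, where the spread was widest. Of the members 64 probes of 62 genes were tested. The other 3, Mrpl15, Mrpl21 and Mrps14, were detected on at most 2 arrays of any group.

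**Figure D1:**
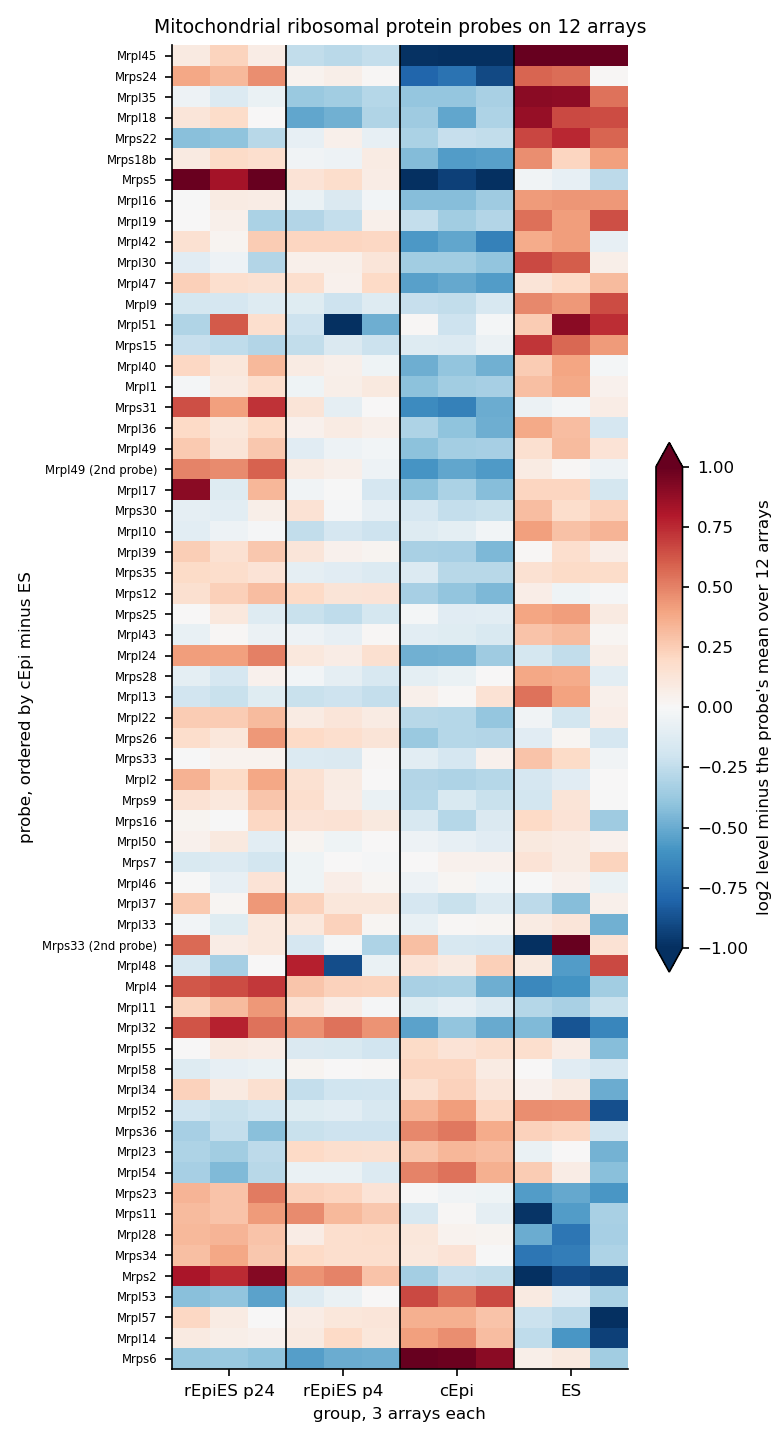
Each row is 1 of the 64 tested mitochondrial ribosomal protein probes and each column 1 array, in the order rEpiES passage 24, rEpiES passage 4, cEpi and ES, with 3 arrays each. The colour is the quantile-normalised log2 level minus the probe's mean over the 12 arrays, and rows are ordered by the change in cEpi against ES. The median over the 64 probes lies between -0.22 and -0.17 on the 3 cEpi arrays and at or above -0.01 on the other 9.

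With the quantile values, the lowest mean of a mitochondrial ribosomal protein gene lay most often in cEpi. The highest lay most often in ES or rEpiES passage 24. These ranks were not counted under other scalings of the arrays, on which calls in cEpi depended. Of the calls lower in cEpi, 4 of 31 against ES were kept under all 3 scalings given below. Against rEpiES passage 4 it was 3 of 28, and against passage 24 it was 10 of 32. The shares of all tested probes below include probes not detected in every group. Of the 64 members, 61 were detected on all 12 arrays. Of the 9595 probes detected on all 12 arrays, 41.8% were called lower in cEpi than in ES, against 29.6% of all tested probes. Ranks and joint calls were not counted over those 9595 probes. The lowest group mean lay in cEpi for 31 of 64 probes (48.4%, against 28.9% of all tested probes), in ES for 12, in rEpiES passage 4 for 11 and in rEpiES passage 24 for 10. The highest lay in ES for 25 (39.1%, against 24.4% of all tested probes), in rEpiES passage 24 for 24 (37.5%, against 27.9%), in cEpi for 12 and in rEpiES passage 4 for 3. In each array, the median over the members of the log2 level minus the probe's mean over all arrays was 0.09, 0.09 and 0.14 in rEpiES passage 24, 0.03, 0.02 and 0.01 in rEpiES passage 4, -0.17, -0.22 and -0.17 in cEpi and 0.14, 0.13 and -0.01 in ES. The 3 cEpi arrays were the lowest of the 12, and ES replicate 3 lay below the other 2 ES arrays. Of the 64 members, 10 were called in none of the 6 comparisons (15.6%, against 11.2% of all tested probes), 4 in all 6 of them (6.25%, against 9.26%), 19 lower in cEpi than in each other group (29.7%, against 16.5% of all tested probes) and 4 higher in cEpi than in each other group (6.25%, against 18% of all tested probes).

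In cEpi against ES, Mrpl45, Mrps24, Mrpl35 and Mrpl18 were the members with the largest falls and Mrps6, Mrpl14 and Mrpl57 those with the largest rises. In all, 13 members were called higher and 31 lower, and 20 were not called. In the same comparison 12 of 14 fibroblast markers and 6 of 7 endoderm markers were called higher, and their part in the result was not tested. In such bulk samples fewer cells of a type and less RNA per cell cannot be told apart. Of all tested probes 36.6% were called higher and 29.6% lower, against 20.3% and 48.4% of the members. The median change of the members was -0.26 and that of all tested probes 0.15, so the members lay at -0.41 relative to the array as a whole, with 45 of 64 below its median. This absolute direction depended on how the arrays were scaled to each other: the members' median turned to 0.20 when each array's median intensity was set equal and to 0.33 without further normalisation, and for all probes it was then 0.69 and 0.81. The distance of the members from all probes was -0.49 under both, with 46 of 64 members below the median. Against the 9595 probes detected on all 12 arrays, of which 34.3% were called higher and 41.8% lower, 14 of the 61 members there were called higher and 35 lower, and the members lay at -0.20 relative to the median of those probes. The share of higher among called probes was 29.5% for the members and 55.3% for all with the quantile values, 74.2% and 82.3% with median scaling, and 88.2% and 86% without further normalisation.

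**Figure D2:**
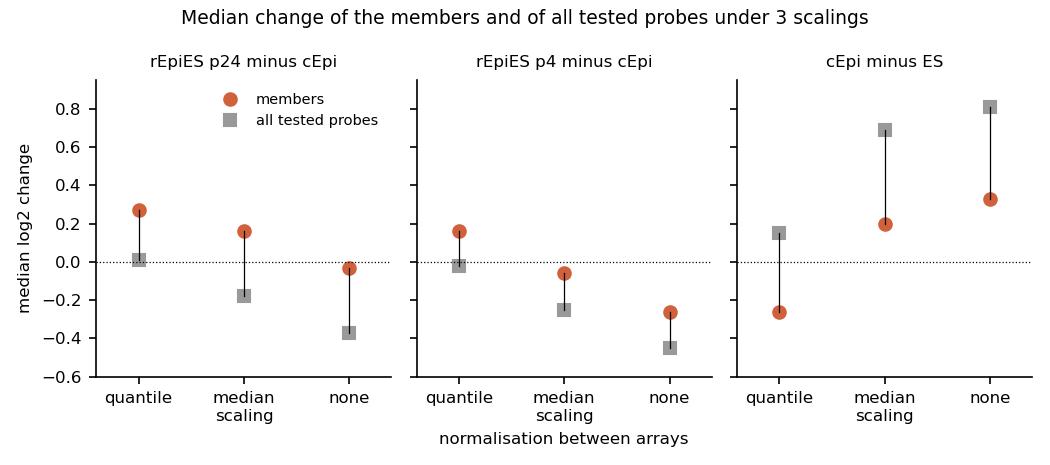
Median log2 change of the members (circles) and of all 15235 tested probes (squares) in 3 comparisons, for the authors' quantile values, for arrays scaled to equal medians and for the deposited intensity without further normalisation. The sign of the members' median differs between scalings in each panel, from -0.26 to 0.33 in cEpi minus ES, while its side of the median of all probes does not.

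Mrpl45, Mrps24, Mrpl35 and Mrpl18 were called lower in cEpi than in ES under all 3 scalings, 4 of the 31 members called lower with the quantile values. Mrpl45 is a mitochondria-specific protein that helps hold the large subunit to the inner membrane near the exit of the nascent chain. Its log2 level was 10.51, 10.40 and 10.28 in cEpi, against 12.65, 12.53 and 12.99 in ES. The groups did not overlap, and the change was -2.33 ± 0.11 (adjusted p = 8.13e-08). Mrps24, the mitochondrial counterpart of the small-subunit protein S3, read 15.33, 15.39 and 15.22 in cEpi, against 16.71, 16.68 and 16.14 in ES, with ES replicate 3 nearest to cEpi, and changed by -1.20 ± 0.14 (adjusted p = 2.97e-05). Mrpl35 and Mrpl18 are large-subunit proteins with bacterial counterparts. Mrpl35 averaged 16.15 ± 0.04 in cEpi and 17.30 ± 0.20 in ES, a change of -1.15 ± 0.09 (adjusted p = 2.79e-06). Mrpl18 averaged 16.86 ± 0.11 in cEpi and 17.98 ± 0.13 in ES, a change of -1.12 ± 0.10 (adjusted p = 3.91e-06). Mrps22, a mitochondria-specific small-subunit protein mutated in a human disorder of mitochondrial translation, followed at -0.93 ± 0.07 (adjusted p = 1.77e-06) and was not called without further normalisation, where its change was -0.33.

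The 13 members called higher in cEpi than in ES were also called under both other scalings, which move the median of all probes up in this comparison and so do not test these calls. Mrps6, the counterpart of the bacterial small-subunit protein S6, read 15.89, 15.87 and 15.79 in cEpi, against 14.95, 14.99 and 14.54 in ES. Its cEpi arrays all lay above its ES arrays, and the change was 1.02 ± 0.11 (adjusted p = 1.8e-05). Mrpl14, whose bacterial counterpart sits at the interface between the subunits, rose by 0.98 ± 0.14 (adjusted p = 0.000162), and the mitochondria-specific Mrpl57 by 0.86 ± 0.20 (adjusted p = 0.00364). Both varied between ES arrays, where Mrpl14 read 13.86, 13.53 and 13.18 and Mrpl57 16.24, 16.19 and 15.33, with the lowest value of each on ES replicate 3. Mrpl53, a mitochondria-specific large-subunit protein, rose by 0.74 ± 0.10 (adjusted p = 0.000107), Mrps2, the counterpart of bacterial S2, by 0.69 ± 0.08 (adjusted p = 4e-05), and the mitochondria-specific small-subunit protein Mrps34 by 0.66 ± 0.10 (adjusted p = 0.000331). Mrps36, which despite its symbol is a subunit of the oxoglutarate dehydrogenase complex, rose by 0.38 ± 0.11 (adjusted p = 0.0119), a call that a fit of cEpi and ES alone did not make.

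For several core proteins listed by role, the call or the direction in cEpi against ES depended on the scaling. Mrps5, a core small-subunit protein, averaged 12.85 ± 0.06 in cEpi and 13.72 ± 0.12 in ES and changed by -0.87 ± 0.09 (adjusted p = 2.06e-05), but by 0.00 without further normalisation. Mrpl16 changed by -0.84 ± 0.06 (adjusted p = 8.43e-07) and Mrps18b, one of several mitochondrial relatives of bacterial S18, by -0.88 ± 0.08 (adjusted p = 6.45e-06), and neither was called without further normalisation. Mrps12, a protein of the decoding centre, changed by -0.39 ± 0.06 with the quantile values and by 0.09 and 0.21 with median scaling and without normalisation. Mrpl10, which anchors the stalk of the large subunit, changed by -0.44 ± 0.06, and by 0.05 and 0.18 under those scalings. Mrpl2, a protein next to the peptidyl transferase centre, changed by -0.20 ± 0.07 (adjusted p = 0.0346) with the quantile values and by 0.37 and 0.49 under the others. The Mrpl2 call was lost without ES replicate 3, rEpiES passage 4 replicate 2 or any 1 cEpi array. Mrps30 changed by -0.45 ± 0.08 (adjusted p = 0.000597) with the quantile values and by 0.12 without normalisation. The other stalk-base protein on the list, Mrpl11, was not called (0.17 ± 0.07, adjusted p = 0.0652).

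**Figure D3:**
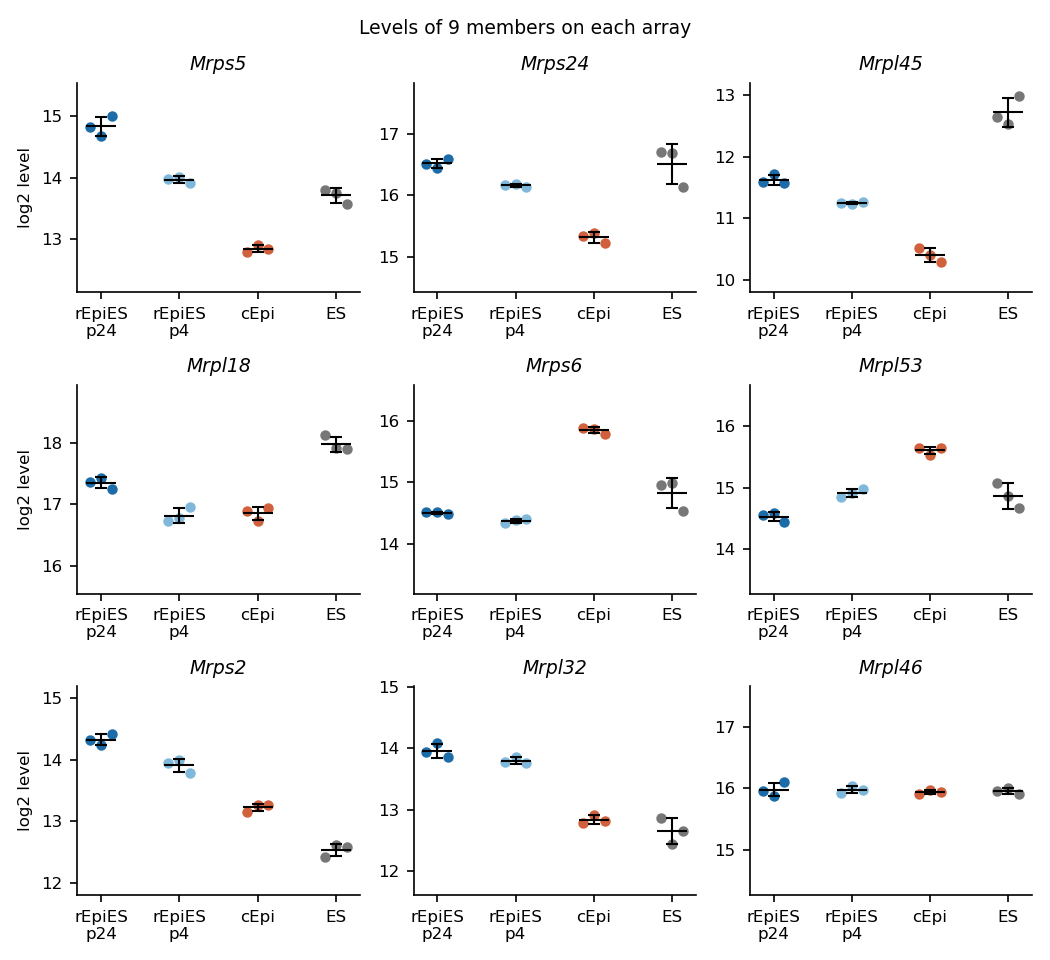
Log2 levels of 9 members on each array (points) with the mean and SD of each group (bars), in the order rEpiES passage 24, rEpiES passage 4, cEpi and ES. Every panel spans the same log2 range. Mrps5 and Mrps24 were lowest in cEpi, Mrps6 and Mrpl53 highest there, Mrpl45 and Mrpl18 highest in ES, Mrps2 and Mrpl32 lowest in ES, and Mrpl46 read 15.88 to 16.10 on all 12 arrays.

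Reprogrammed cells were compared with cEpi, cultured cells of the tissue they were derived from. In rEpiES passage 4 against cEpi, 28 members were called higher and 5 lower, that is 43.8% and 7.81% of them, against 28.2% and 28.1% of all tested probes. In rEpiES passage 24 against cEpi, 32 were called higher and 7 lower, that is 50% and 10.9% of them, against 33.3% and 32.9% of all tested probes. In all, 25 members were called higher in both rEpiES groups than in cEpi (39.1%, against 24% of all tested probes) and 4 lower in both (6.25%, against 23.9%). The members' median change was 0.16 at passage 4 and 0.27 at passage 24, or 0.17 and 0.25 relative to all tested probes. With median scaling these medians were -0.06 and 0.16, and without further normalisation -0.26 and -0.03, so that the sign turned at passage 4 under both and at passage 24 under the second, while relative to all probes they were 0.20 and 0.34 under both. Among called members the share of higher was 84.8% at passage 4 and 82.1% at passage 24, 35% and 69.7% with median scaling, and 13% and 38.5% without further normalisation. For all tested probes it was 50.1% and 50.3%, 31.5% and 39%, and 20.1% and 29.7%. Among probes detected on all 12 arrays, 31 members were called higher and 8 lower at passage 4 (38.2% and 31.4% of those probes), and 33 higher and 8 lower at passage 24 (41.2% and 35% of those probes).

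Counts of members called lower in these comparisons depended on the ES arrays, which enter the pooled spread. Without ES replicate 3 they were 12 at passage 4 and 12 at passage 24, and without ES replicate 1 the passage 4 count was 9. A fit of the 2 groups compared gave 12 and 13. The comparison of passage 4 with cEpi lay within 1 of the 2 file layouts of the deposit, whereas cEpi against ES, passage 24 against cEpi and passage 24 against passage 4 lay across them, so that there group and layout cannot be told apart.

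Mrps5 showed the largest rise of the family. Its log2 level was 14.83, 14.68 and 15.00 in rEpiES passage 24, 13.98, 14.02 and 13.92 in rEpiES passage 4 and 12.79, 12.91 and 12.85 in cEpi, against 13.81, 13.76 and 13.58 in ES. No rEpiES array overlapped with cEpi, and the passage 24 arrays lay above those of all other groups. The change against cEpi was 1.98 ± 0.09 (adjusted p = 4.88e-08) at passage 24 and 1.12 ± 0.09 (adjusted p = 4.9e-06) at passage 4, and both were called under all 3 scalings. Mrps24 averaged 16.51 ± 0.07 in rEpiES passage 24, 16.16 ± 0.02 in rEpiES passage 4 and 15.31 ± 0.09 in cEpi, and Mrpl42, a mitochondria-specific large-subunit protein, averaged 16.25 ± 0.12 in rEpiES passage 24, 16.32 ± 0.01 in rEpiES passage 4 and 15.52 ± 0.08 in cEpi. Mrps24 rose by 1.20 ± 0.14 (adjusted p = 2.72e-05) and 0.85 ± 0.14 (adjusted p = 0.000447), and Mrpl42 rose at passage 4 by 0.80 ± 0.13 (adjusted p = 0.000424). These 3 genes were the ones called higher at passage 4 under all 3 scalings. At passage 24 there were 10, among them also Mrpl45, Mrps31, Mrpl32, Mrpl4 and Mrps2.

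Mrpl45 read 11.59, 11.72 and 11.57 in rEpiES passage 24 and 11.25, 11.23 and 11.26 in rEpiES passage 4, against 10.51, 10.40 and 10.28 in cEpi. Its rises were 1.23 ± 0.11 (adjusted p = 5.8e-06) and 0.85 ± 0.11 (adjusted p = 0.000125), and its level in both rEpiES groups stayed below that in ES. Mrps31, a mitochondria-specific small-subunit protein, rose at passage 24 by 1.20 ± 0.10 (adjusted p = 2.41e-06). Mrpl32, a zinc-binding protein of the large subunit that is cut by the m-AAA protease before assembly in yeast and mouse, rose by 1.12 ± 0.11 (adjusted p = 7.09e-06) at passage 24 and by 0.96 ± 0.11 (adjusted p = 3.36e-05) at passage 4, where the call was lost without further normalisation (0.42). Mrpl4, which lines the exit tunnel, rose by 1.04 ± 0.09 (adjusted p = 3.07e-06) at passage 24, and Mrps2 by 1.10 ± 0.08 (adjusted p = 1.3e-06). Mrpl49 was measured by 2 probes, which averaged 15.83 ± 0.08 and 15.50 ± 0.06 in rEpiES passage 24, 15.55 ± 0.04 and 15.01 ± 0.07 in rEpiES passage 4, 15.25 ± 0.04 and 14.42 ± 0.04 in cEpi, and 15.82 ± 0.10 and 14.99 ± 0.06 in ES. Both probes had their lowest mean in cEpi.

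The falls were fewer, and the largest was that of Mrps6. Its log2 level was 14.51, 14.52 and 14.49 in rEpiES passage 24 and 14.34, 14.39 and 14.40 in rEpiES passage 4, against 15.89, 15.87 and 15.79 in cEpi. Both rEpiES groups lay wholly below cEpi, with changes of -1.34 ± 0.11 (adjusted p = 2.28e-06) at passage 24 and -1.48 ± 0.11 (adjusted p = 2.1e-06) at passage 4. Mrpl53 changed by -1.07 ± 0.10 (adjusted p = 6.6e-06) at passage 24 and by -0.69 ± 0.10 (adjusted p = 0.000231) at passage 4. Mrps36 changed by -0.79 ± 0.11 (adjusted p = 0.000118) and -0.67 ± 0.11 (adjusted p = 0.000488). Mrpl54, a mitochondria-specific large-subunit protein, changed by -0.82 ± 0.15 (adjusted p = 0.000684) and -0.55 ± 0.15 (adjusted p = 0.00882). Mrpl23, whose bacterial counterpart lies at the rim of the exit tunnel, changed at passage 24 by -0.61 ± 0.11 (adjusted p = 0.000591). Both other scalings move the median of all probes down in these comparisons and so do not test these falls. The fall of Mrpl34 at passage 4 (-0.38 ± 0.14, adjusted p = 0.0378) was lost when any 1 array of rEpiES passage 24, rEpiES passage 4 or cEpi was left out.

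Reprogrammed cells were next set against ES cells, the state that their name refers to. In rEpiES passage 4 against ES, 15 members were called higher and 21 lower (23.4% and 32.8%, against 29.3% and 26% of all tested probes), with a median change of -0.09. In rEpiES passage 24 against ES, 19 were called higher and 19 lower (29.7% each, against 30.6% and 29% of all tested probes), with a median of -0.00. Relative to all tested probes the medians were -0.14 and -0.04. With median scaling they turned to 0.17 and 0.36, and without further normalisation to 0.10 and 0.30, where all probes lay at 0.35 and 0.37 and at 0.28 and 0.31. The share of higher among called members was 41.7% at passage 4 and 50% at passage 24, 74.1% and 88.9% with median scaling, and 66.7% and 87.5% without further normalisation. For all tested probes it was 52.9% and 51.4%, 80.5% and 75.9%, and 76.7% and 73.1%. Among probes detected on all 12 arrays, 16 members were higher and 23 lower at passage 4 (31% and 37.5% of those probes), and 19 higher and 21 lower at passage 24 (31.8% and 40.8% of those probes). Relative to the median of those probes the members lay at -0.02 at passage 4 and at 0.08 at passage 24, so their side depended on the probes compared. Passage 24 against ES lay within 1 file layout and passage 4 against ES across both. The pooled spread may make standard errors against ES too small, since ES arrays varied most (median SD of the members 0.17). Fits of the 2 groups alone called fewer members higher at passage 4 and fewer lower at passage 24, as given at the end.

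Mrps2, Mrpl32 and Mrpl4 stood above ES in both rEpiES groups. Mrps2 read 14.32, 14.25 and 14.42 in rEpiES passage 24, 13.95, 14.00 and 13.79 in rEpiES passage 4, 13.16, 13.27 and 13.26 in cEpi, against 12.42, 12.61 and 12.58 in ES. The 4 groups did not overlap and ran in the order passage 24, passage 4, cEpi, ES, with a change against ES of 1.79 ± 0.08 (adjusted p = 9.51e-08) at passage 24 and 1.38 ± 0.08 (adjusted p = 8.94e-07) at passage 4. Mrpl32 read 13.94, 14.08 and 13.86 in rEpiES passage 24, 13.77, 13.86 and 13.76 in rEpiES passage 4, 12.78, 12.92 and 12.81 in cEpi, against 12.87, 12.45 and 12.66 in ES. Its cEpi and ES arrays overlapped, and the 6 rEpiES arrays lay above both, with changes against ES of 1.30 ± 0.11 (adjusted p = 3.87e-06) and 1.14 ± 0.11 (adjusted p = 1.38e-05). Mrpl4 averaged 14.65 ± 0.04 in rEpiES passage 24, 14.23 ± 0.02 in rEpiES passage 4, 13.61 ± 0.10 in cEpi and 13.46 ± 0.16 in ES, and changed against ES by 1.19 ± 0.09 (adjusted p = 1.92e-06) and 0.77 ± 0.09 (adjusted p = 4.93e-05). Mrps11, the counterpart of bacterial S11, changed by 0.96 ± 0.14 (adjusted p = 0.000258) and 0.97 ± 0.14 (adjusted p = 0.000293), and Mrps34 by 0.89 ± 0.10 (adjusted p = 4.99e-05) and 0.75 ± 0.10 (adjusted p = 0.0002). Mrps11 varied between ES arrays more than its pooled standard error shows, and its ES values are given below. Mrps5 was above ES at passage 24 (1.12 ± 0.09, adjusted p = 4.72e-06), and its smaller rise at passage 4 (0.26 ± 0.09) was lost in 9 of the 12 fits that each left out 1 array.

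Mrpl45, Mrpl35, Mrps22 and Mrps15 stayed below ES in both rEpiES groups under all 3 scalings. Mrpl45 changed by -1.10 ± 0.11 (adjusted p = 2.01e-05) at passage 24 and -1.48 ± 0.11 (adjusted p = 4e-06) at passage 4. Mrpl35 averaged 16.43 ± 0.05 in rEpiES passage 24, 16.18 ± 0.04 in rEpiES passage 4, 16.15 ± 0.04 in cEpi and 17.30 ± 0.20 in ES. All 9 arrays outside ES lay below the lowest ES array, and Mrpl35 changed by -0.87 ± 0.09 (adjusted p = 2.71e-05) and -1.12 ± 0.09 (adjusted p = 7.13e-06). Mrps22 averaged 15.25 ± 0.08 in rEpiES passage 24, 15.58 ± 0.07 in rEpiES passage 4, 15.36 ± 0.05 in cEpi and 16.29 ± 0.08 in ES, with changes of -1.04 ± 0.07 (adjusted p = 1.32e-06) and -0.71 ± 0.07 (adjusted p = 2.42e-05). Mrps15, the counterpart of bacterial S15, averaged 14.36 ± 0.04 in rEpiES passage 24, 14.41 ± 0.05 in rEpiES passage 4, 14.51 ± 0.04 in cEpi and 15.19 ± 0.14 in ES, with changes of -0.83 ± 0.08 (adjusted p = 9.62e-06) and -0.77 ± 0.08 (adjusted p = 2.21e-05). Mrpl18 changed by -1.16 ± 0.10 (adjusted p = 6.48e-06) at passage 4. Mrpl51 read 10.07, 8.83 and 9.79 in rEpiES passage 4, where it was detected on 0 of 3 arrays, against 10.53, 11.18 and 11.02 in ES, where it was detected on 2 of 3. It changed by -1.35 ± 0.33 in rEpiES passage 4 against ES (adjusted p = 0.00614), a size that rests on undetected values in rEpiES passage 4. Replicate 2 of rEpiES passage 4 lay well below the other 2 arrays of its group.

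**Figure D4:**
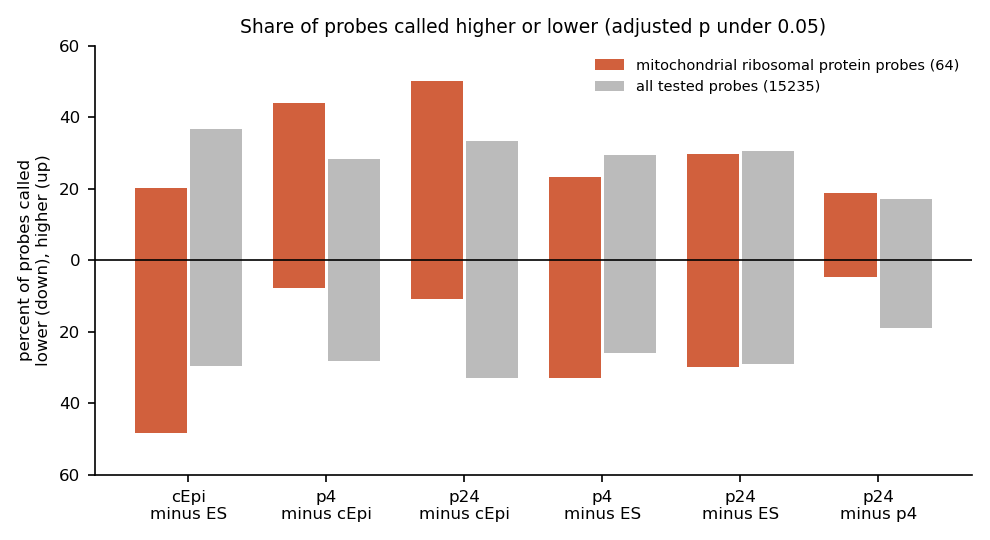
Percent of probes called higher (above 0) or lower (below 0) in each of the 6 comparisons, for the 64 mitochondrial ribosomal protein probes (left bar) and all 15235 tested probes (right bar). Members called lower outnumber those called higher only in the 2 comparisons cEpi minus ES (48.4% against 20.3%) and rEpiES passage 4 minus ES (32.8% against 23.4%).

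Between the 2 passages few members differed. In rEpiES passage 24 against passage 4, 12 members were called higher and 3 lower (18.8% and 4.69%, against 17.2% and 18.9% of all tested probes), and 49 were not called. The median change was 0.11, or 0.10 relative to all tested probes, and its sign held under the other scalings (0.21 and 0.23). Without ES replicate 3 the counts were 19 and 6. Among probes detected on all 12 arrays, 17 members were called higher and 3 lower (24.8% and 26.7% of those probes). Mrps5 rose by 0.86 ± 0.09 (adjusted p = 8.77e-05), Mrps31 by 0.58 ± 0.10 (adjusted p = 0.00133), Mrpl18 by 0.54 ± 0.10 (adjusted p = 0.00184) and the second Mrpl49 probe by 0.49 ± 0.06 (adjusted p = 0.000293), all 4 under all 3 scalings. Mrpl23 averaged 15.99 ± 0.04 in rEpiES passage 24 and 16.48 ± 0.02 in rEpiES passage 4, a change of -0.48 ± 0.11 (adjusted p = 0.00609) that also held. Mrpl4 rose by 0.42 ± 0.09 (adjusted p = 0.00444) and lost its call under both other scalings, as did the falls of Mrpl53 (-0.39 ± 0.10) and Mrps22 (-0.33 ± 0.07). That of Mrpl53 was also lost without replicate 3 of either rEpiES group. In all, 8 members were called higher at passage 24 than in each other group (12.5%, against 8.43% of all tested probes).

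Members were also counted by subunit and by origin, beside 36.6% called higher and 29.6% lower of all tested probes in cEpi against ES, and 33.3% and 32.9% in rEpiES passage 24 against cEpi. The small subunit had 21 probes, with 5 called higher (23.8%) and 10 lower (47.6%) in cEpi than in ES (median -0.23), and of 42 large-subunit probes 7 were higher (16.7%) and 21 lower (50%, median -0.29). Without further normalisation these counts were 10 and 1, and 19 and 3, while both medians lay below that of all probes, at -0.51 and -0.49 relative to it. At passage 24 against cEpi, 11 small-subunit probes were called higher (52.4%) and 2 lower (9.52%, median 0.40), and 21 large-subunit probes higher (50%) and 4 lower (9.52%, median 0.24). Without further normalisation these counts were 4 and 5, and 6 and 10, with medians of 0.37 and 0.30 relative to all probes. Of the 34 members with a bacterial counterpart, 21 were called higher (61.8%) and 3 lower (8.82%) at passage 24 than in cEpi (median 0.43), and of the 29 mitochondria-specific members 11 were higher (37.9%) and 3 lower (10.3%, median 0.17). Without further normalisation these were 5 and 7, and 5 and 8. The difference between these classes was not tested. Mrps30 carries a small-subunit symbol but belongs to the large subunit, where it was counted.

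Among the 10 members called in no comparison was Mrpl46, shown here after its values were seen, a mitochondria-specific large-subunit protein, at 15.98 ± 0.12 in rEpiES passage 24, 15.98 ± 0.06 in rEpiES passage 4, 15.95 ± 0.03 in cEpi and 15.96 ± 0.06 in ES. Its groups overlapped throughout. Mrps11 starts next to Mrpl46 on the opposite strand, and its level differed between groups: it averaged 13.25 ± 0.07 in rEpiES passage 24, 13.26 ± 0.11 in rEpiES passage 4, 12.83 ± 0.09 in cEpi and 12.29 ± 0.33 in ES, lowest in ES, where its 3 arrays read 11.93, 12.35 and 12.58. The annotated start regions of the pair overlap by 141 bases, chr7:78783040-78783180 in RefSeq (GRCm38.p6).

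Promoter windows of 300 bases, from 250 before to 50 after the annotated start, were read from RefSeq (GRCm38.p6) for 57 of the 65 genes (63 windows). They were searched on both strands for letters of factors known to serve genes of mitochondrial function: CCGGAAG, the core that ETS proteins such as GABPA bind, GCGCATGC, the core of the NRF1 motif, and AAGATGGC, the YY1 motif. The last letters of the first can overlap the start of the third. CCGGAAG stood in 20 of 63 windows (31.7%, against 8.86% of all 32851 windows), GCGCATGC in 8 (12.7%, against 2.71%) and AAGATGGC in 10 (15.9%, against 2.75%). At least 1 of the 3 stood in 32 windows (50.8%, against 13.3%). The letters CCAAT stood in 24 (38.1%, against 37.4%) and TATAAA in 4 (6.35%, against 13.6%). The median GC content of the members' windows was 58.7%, against 52.7% for all windows. Of the 28 matched genes called lower in cEpi than in ES, 15 held at least 1 of the first 3 motifs, as did 5 of the 11 called higher and 11 of the 16 not called. A match describes letters and not a bound site.

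The windows of 4 members are shown because these genes stand for different patterns. Mrpl18 was highest in ES, Mrps24 was lower in cEpi than in each other group, Mrpl32 was highest in rEpiES, and Mrpl46 was called nowhere. They lie at chr17:12916042-12916341 (minus strand), chr11:5707652-5707951 (minus strand), chr13:14612988-14613287 (minus strand) and chr7:78783040-78783339 (minus strand) of GRCm38.p6 and are written 5′ to 3′ on the gene's strand. Capitals mark CCGGAAG in Mrpl18, AAGATGGC in Mrps24, and in Mrpl32 the copies of GCGCATGC on either strand, of which 2 overlap, and 1 AAGATGGC on the opposite strand. The window of Mrpl46 held none of the 3.
Mrpl18: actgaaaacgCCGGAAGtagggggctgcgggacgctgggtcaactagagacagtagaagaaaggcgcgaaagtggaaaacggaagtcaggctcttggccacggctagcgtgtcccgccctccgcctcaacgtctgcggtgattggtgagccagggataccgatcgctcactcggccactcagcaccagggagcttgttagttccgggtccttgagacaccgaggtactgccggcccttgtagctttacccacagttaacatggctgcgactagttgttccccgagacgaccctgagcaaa
Mrps24: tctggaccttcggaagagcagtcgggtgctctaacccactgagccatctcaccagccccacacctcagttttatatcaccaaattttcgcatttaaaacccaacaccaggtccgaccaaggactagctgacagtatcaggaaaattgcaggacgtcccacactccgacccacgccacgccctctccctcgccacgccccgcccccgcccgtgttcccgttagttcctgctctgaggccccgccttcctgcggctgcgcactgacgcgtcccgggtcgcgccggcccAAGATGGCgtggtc
Mrpl32: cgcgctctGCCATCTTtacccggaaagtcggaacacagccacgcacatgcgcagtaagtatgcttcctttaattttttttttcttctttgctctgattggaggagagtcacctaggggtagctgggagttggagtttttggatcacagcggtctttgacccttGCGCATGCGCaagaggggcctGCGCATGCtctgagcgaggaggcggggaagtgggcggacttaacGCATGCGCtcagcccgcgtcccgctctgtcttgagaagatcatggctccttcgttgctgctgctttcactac
Mrpl46: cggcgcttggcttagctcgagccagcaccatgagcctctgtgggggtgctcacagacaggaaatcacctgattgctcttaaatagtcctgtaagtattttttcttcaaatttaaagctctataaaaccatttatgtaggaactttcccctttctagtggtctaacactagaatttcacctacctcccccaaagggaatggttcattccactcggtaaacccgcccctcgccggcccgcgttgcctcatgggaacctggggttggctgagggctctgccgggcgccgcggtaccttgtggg

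Other genes that serve mitochondrial translation are given by list, with the quantile values first. The other scalings, median scaling and none, moved the median of all probes in cEpi against ES to 0.69 and 0.81, from 0.15 with the quantile values. In rEpiES passage 24 against cEpi they moved it to -0.18 and -0.37 (0.01 with the quantile values), and in rEpiES passage 4 against cEpi to -0.25 and -0.45 (-0.02). The list of mitochondrial translation factors held 12 tested genes. They included Mto1 and Trmu, which modify tRNAs, and Mtfmt, which formylates a tRNA. Of these 12 genes, 9 were called lower in cEpi than in ES and 3 were not called (median -0.73). With median scaling 2 were higher and 1 lower (median -0.06), and likewise without normalisation (median 0.07). At passage 24 of rEpiES against cEpi, 10 were called higher and 2 were not called (median 0.56), with 7 higher after median scaling, and 5 higher and 1 lower without normalisation (median 0.15). In rEpiES passage 4 against cEpi, 6 were called higher and 6 were not called (median 0.29), with 2 higher after median scaling, and 1 higher and 3 lower without normalisation (median -0.17). Mtif2, the initiation factor that brings the first tRNA, changed by -1.38 ± 0.17 in cEpi against ES (adjusted p = 5.35e-05), and by -0.69 and -0.56 under the other scalings. The release factor gene Mtrf1l changed by 2.69 ± 0.08 in rEpiES passage 24 against cEpi (adjusted p = 2e-09), and by 2.42 and 2.24 under the other scalings. Against rEpiES passage 4 it changed by 2.72 ± 0.08 (adjusted p = 1.08e-08). Gfm2, which acts in the recycling of ribosomes, rose by 1.65 ± 0.11 at passage 24 (adjusted p = 6.32e-07, 1.36 and 1.17 under the other scalings) and by 0.99 ± 0.11 at passage 4 against cEpi (adjusted p = 3.98e-05, 0.65 and 0.45).

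Of 18 genes of mitoribosome assembly and rRNA modification, 3 were called higher and 10 lower in cEpi than in ES (median -0.46), but 6 and 3 with median scaling and 7 and 2 without normalisation (median 0.39). At passage 24 against cEpi, 14 were higher and 3 lower (median 0.66), with 9 and 2 after median scaling and 7 and 3 without normalisation (median 0.23). Tfb1m, which methylates the small-subunit rRNA, changed by -1.21 ± 0.09 in cEpi against ES (adjusted p = 1.03e-06), and by -0.46 and -0.33 under the other scalings. It changed by 1.27 ± 0.09 in rEpiES passage 24 against cEpi (adjusted p = 6.11e-07), and by 0.99 and 0.80 under the others. A list of 5 genes with other symbols held mitoribosomal proteins and also Oxa1l, a membrane insertase that is not a ribosomal protein. Of these 5 genes, 4, Oxa1l included, were called lower in cEpi than in ES and 1 was not called (median -0.52). Under each other scaling 1 was higher (medians 0.04 and 0.17). Among them Ptcd3, a small-subunit protein, changed by -0.74 ± 0.07 in cEpi against ES (adjusted p = 5.29e-06), but by -0.11 with median scaling and 0.02 without normalisation. It rose by 1.15 ± 0.07 in rEpiES passage 24 against cEpi (adjusted p = 1.98e-07), and by 0.94 and 0.76 under the others.

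Of 12 mitochondrial aminoacyl-tRNA synthetases, which charge the tRNAs used by the mitoribosome, 7 were called lower in cEpi than in ES and 5 were not called (median -0.28). With median scaling 6 were higher and 1 lower (median 0.43), and without normalisation 9 and 1 (median 0.55). Of the same 12, 11 were called higher in rEpiES passage 24 than in cEpi and 1 was not called (median 0.61), with 4 higher after median scaling and 2 without normalisation (median 0.12). Tars2, the threonine enzyme, rose by 1.49 ± 0.10 at passage 24 (adjusted p = 6.94e-07, 1.20 and 1.01 under the other scalings) and by 0.89 ± 0.10 at passage 4 against cEpi (adjusted p = 4.36e-05, 0.56 and 0.36). Of 16 genes of mitochondrial transcription and RNA processing, 2 were called higher and 9 lower in cEpi than in ES (median -0.39), but 5 and 2 with median scaling, and 6 higher and 10 not called without normalisation (median 0.28). Against cEpi, 11 of the 16 were higher and 1 lower at passage 24 of rEpiES (median 0.48), with 7 and 2 after median scaling and 5 and 2 without normalisation (median 0.06). Tefm, an elongation factor of mitochondrial transcription, changed by -1.20 ± 0.09 in cEpi against ES (adjusted p = 1.1e-06, -0.50 and -0.37 under the other scalings) and by 1.35 ± 0.09 in rEpiES passage 24 against cEpi (adjusted p = 4.16e-07, 1.07 and 0.88). Relative to all probes, the list medians in cEpi against ES without normalisation were -0.74 for translation factors, -0.42 for assembly, -0.26 for synthetases, -0.54 for transcription and -0.65 for the other symbols.

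Of 8 regulators of mitochondrial biogenesis, 2 were called higher and 2 lower in cEpi than in ES (median -0.05), with 5 higher after median scaling (median 0.65) and 7 higher without normalisation (median 0.78). In each rEpiES group against cEpi 3 were called higher and 2 lower, with medians of 0.20 at passage 24 and 0.22 at passage 4. With median scaling 2 were higher and 2 lower at passage 24, and 1 and 2 at passage 4, and without normalisation 1 was higher and 2 lower at each passage. Gabpa, the ETS factor whose motif was searched in the promoters, rose by 1.60 ± 0.09 in rEpiES passage 24 against cEpi (adjusted p = 1.26e-07, 1.36 and 1.17 under the other scalings) and by 1.20 ± 0.09 in rEpiES passage 4 against cEpi (adjusted p = 1.76e-06, 0.87 and 0.66). Gabpa was also higher than in ES, by 1.28 ± 0.09 at passage 24 (adjusted p = 1.13e-06) and by 0.88 ± 0.09 at passage 4 (adjusted p = 1.93e-05). Its relation to the members was not tested. Esrra, a nuclear receptor that acts on genes of oxidative metabolism, changed by -0.60 ± 0.11 (adjusted p = 0.000922) at passage 24 and by -0.66 ± 0.11 (adjusted p = 0.000642) at passage 4 against cEpi, and by 1.20 ± 0.11 in cEpi against ES (adjusted p = 7.35e-06).

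Cytosolic ribosomal proteins and subunits of oxidative phosphorylation are given beside them. The mitoribosome's products join most of the oxidative phosphorylation complexes. Among the 66 probes for cytosolic ribosomal proteins, those called numbered 22 higher (33.3%) and 12 lower (18.2%) in cEpi than in ES (median 0.11), beside 36.6% and 29.6% of all tested probes. At passage 24 against cEpi they numbered 15 higher (22.7%) and 13 lower (19.7%, median 0.05), beside 33.3% and 32.9%. Relative to all probes their median in cEpi against ES was -0.04 with the quantile values but -0.33 under both other scalings. Without normalisation 45 were higher and 2 lower in cEpi than in ES, and 1 higher and 25 lower in rEpiES passage 24 than in cEpi. Of 60 probes for nuclear-encoded oxidative phosphorylation subunits, 33 were called higher (55%) and 12 lower (20%) in cEpi than in ES (median 0.31), and 13 higher (21.7%) and 18 lower (30%) in rEpiES passage 24 than in cEpi (median -0.05). Relative to all probes their median in cEpi against ES was 0.16, and 0.09 under both other scalings. Without normalisation 46 were higher and 2 lower in cEpi than in ES, and 5 higher and 29 lower in rEpiES passage 24 than in cEpi. The differences between these lists and the mitochondrial ribosomal proteins were not tested.

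**Figure D5:**
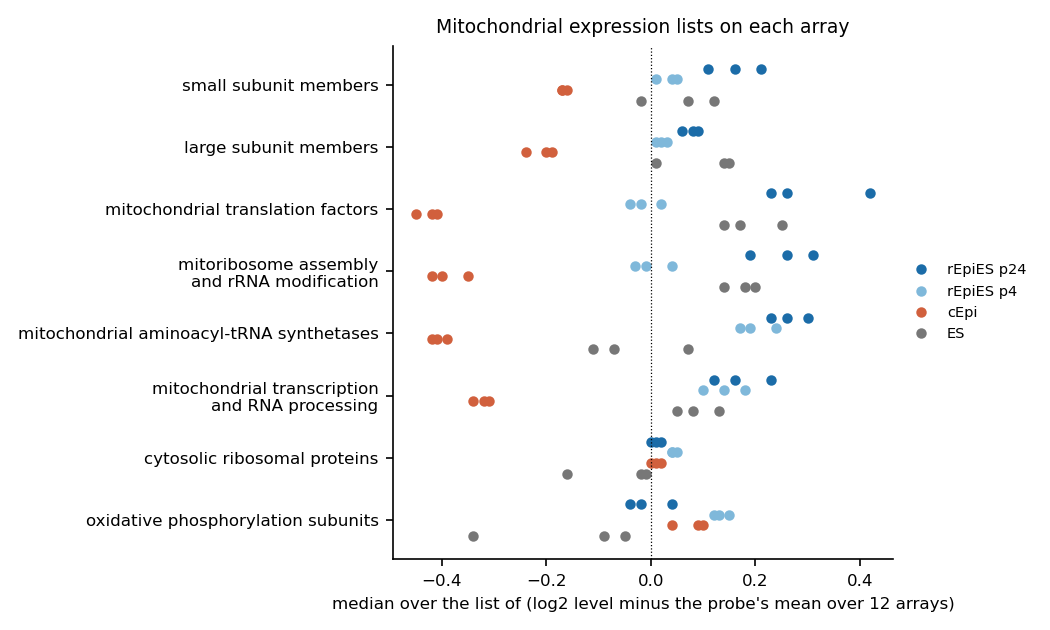
Median over each list of the log2 level minus the probe's mean over the 12 arrays, 1 point per array, with rEpiES passage 24, rEpiES passage 4, cEpi and ES drawn from top to bottom within each list. The cEpi arrays lie lowest for both subunits and for the 4 lists of translation factors, assembly, synthetases and transcription. For cytosolic ribosomal proteins and oxidative phosphorylation subunits ES replicate 3 is lowest.

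Markers of other cells, fibroblasts and endoderm, had their highest summed level in cEpi. In the same units of 1000, the summed linear level of 14 fibroblast markers was 499 to 524 in rEpiES passage 24, between 924 and 949 in rEpiES passage 4, 2810 to 2920 in cEpi and 714 to 1010 in ES. Of these markers 12 of 14 were called higher in cEpi than in ES and 12 of 14 lower in each rEpiES group than in cEpi, and Thy1 was detected on no ES array. The summed level of 9 endoderm markers on the array was 4.97 to 6.28 in rEpiES passage 24, between 10.6 and 12.5 in rEpiES passage 4, 134 to 145 in cEpi and 27.9 to 32.3 in ES. Of the 7 that were tested, 6 were called higher in cEpi than in ES. Gata4, Dab2 and Foxa1 were detected on no array of rEpiES passage 24 or ES. The summed level of 7 post-implantation epiblast markers was 517 to 546 in rEpiES passage 24, between 360 and 376 in rEpiES passage 4, 894 to 896 in cEpi and 766 to 925 in ES. The range in ES thus spanned that in cEpi. Of these 7 markers, 5 were called higher and 2 lower in cEpi than in ES. Against cEpi, 1 was higher and 5 lower at rEpiES passage 4, and 3 were higher and 4 lower at passage 24. Whether the fibroblast and endoderm markers came from other cells or from epiblast cells was not tested. Nor was their part in the levels of the mitochondrial ribosomal protein genes.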

How the data were processed

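RNA was hybridised to Applied Biosystems AB1700 one-colour arrays, 3 for each of the 4 groups. Per the file headers, the authors deposited for every probe a linear intensity, a signal-to-noise score, a quality code and a quantile-normalised value. The quantile values are on a log2 scale in the deposited files, judged from their range, and share nearly 1 distribution across arrays. For the scanner software and background correction, the sources used here give nothing. The headings of score and quality code stood exchanged for cEpi and rEpiES passage 4, judged from the values, and were read the other way round.

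The quantile values were fitted in 1 model of 12 arrays with limma 3.58.1 in R 4.3.3 (lmFit and eBayes, two-sided, Benjamini-Hochberg over all 15235 tested probes, adjusted p under 0.05). A probe was tested if its score was 3 or more on all 3 arrays of at least 1 group. No count model was used, and precision is limited by the number of arrays. Genes came from the platform annotation, in which 14411 probes have 1 symbol, 247 several and 18354 none. For each comparison the text names members among the 5 largest called rises and falls, and members listed by role. For the other lists it names genes among the 3 largest called changes. The members and lists were chosen with earlier results of these data known. The code was tested on simulated data. Alternatives were other scalings, other filters on detection and quality code, 1 probe per gene, fits of 2 groups, a replicate block and leaving out each array.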

Additional observations from a re-analysis of the deposited data

How the results depend on the processing

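Of 240 alternative counts of members called, 208 lay within 1.5 times the reported count. Most alternatives left out 1 array and kept the others of the main fit, so this tally says little about scaling. Counts are given in the order higher, lower unless 1 direction is named. With median scaling they were 23 and 8 in cEpi against ES, 7 and 13 in rEpiES passage 4 against cEpi, 7 lower in rEpiES passage 4 against ES, 32 and 4 in rEpiES passage 24 against ES, and 7 and 1 in passage 24 against passage 4. Without further normalisation they were 30 and 4, 3 and 20, 10 and 16 for rEpiES passage 24 against cEpi, 7 lower for passage 4 against ES, 4 lower for passage 24 against ES, and 6 and 1 between passages. With no detection filter, 9 were higher in passage 4 against ES, and 6 and 1 between passages. Among probes detected on all 12 arrays, 8 were lower in passage 4 against cEpi. Fits of 2 groups gave 12 lower in passage 4 against cEpi, 13 lower in passage 24 against cEpi, 9 higher in passage 4 against ES and 12 lower in passage 24 against ES. Leaving out 1 array gave 4 to 12 lower in passage 4 against cEpi, 7 to 12 lower in passage 24 against cEpi, and 9 to 19 higher and 2 to 6 lower between passages. The highest value of each came without ES replicate 3.

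Of 2013 alternative values of 106 named changes, 1819 kept sign and call, 174 lost the call and 20 changed sign, none of them among the 1272 with 1 array left out. In cEpi against ES, with median scaling and without normalisation, Mrps12 gave 0.09 and 0.21, Mrpl10 0.05 and 0.18 and Mrpl2 0.37 and 0.49, and without normalisation Mrps30 gave 0.12 and Mrps5 0.00. In passage 4 against cEpi without normalisation, Mrpl16 gave -0.13, Mrps30 -0.17, Mrps22 -0.20 and Mrpl2 -0.08. In passage 4 against ES, Mrps7 gave 0.09 and 0.02, and Mrps30 0.03 with median scaling. In passage 24 against ES, Mrps18b gave 0.17 and 0.11, Mrps30 0.08 and 0.02, and Mrps7 0.06 with median scaling. The cause was not tested.

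Same-numbered arrays did not deviate together (correlations -0.03 to 0.04 over probes), and with the replicate block 13 and 29 members were called in cEpi against ES, 29 and 5 in passage 4 against cEpi, and 32 and 7 in passage 24 against cEpi. The 3 undetected members and dim probes such as Mrpl51 limit what can be read.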
